A study of Mus musculus with 4 samples.

Results

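Accessible chromatin of wild-type mouse embryonic stem cells was compared between day 0, in medium containing the cytokine LIF, and day 5 of neural differentiation, in N2B27 medium with the growth factors EGF and FGF2. The comparison uses the 2 wild-type libraries of the 4 in the series, with 1 library per group, and both were taken by genotype and time as labelled. The other 2 libraries are the same time points, in the same media, of cells with a knockout of both Cdc14a and Cdc14b (labelled Cdc14ab KO), and their values are given only beside the wild-type ones. All 4 carry the label clone 3, so each genotype stands for 1 clone number, and the labels leave unsaid whether it names a common origin of both genotypes. The cells came from blastocysts, were grown over feeder cells and were plated at low density on gelatin to take the feeders away before sampling. Single-nucleus ATAC-seq uses a transposase that inserts into open DNA, and the data are the positions of the peaks (accessible regions) of each library. With 1 library per group, every difference below describes these libraries, has no replicate check and carries no test.

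Mouse embryonic stem cells hold a network of transcription factors around Pou5f1, Sox2 and Nanog that LIF, acting through STAT3, helps to keep active. When LIF is withdrawn and serum-free N2B27 is supplied, the cells pass through a formative state and many become neural precursors, which rely on Sox1, Pax6 and Notch targets such as Hes5, while EGF and FGF2 support the growth of such precursors. Enhancers and promoters in use are usually accessible to the transposase, and many tissue-specific genes have enhancers far from their starts.

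The wild-type libraries held 194510 autosomal peaks at day 0 and 185384 at day 5, with median widths of 873 and 878 bp, and the peaks covered 165.0 and 158.8 Mb of the autosomes. The files give no read depth, and a region can go unlisted for lack of reads as well as for being closed. The 2 libraries stood apart on the Y chromosome. In the first 10 Mb of Y, 0 peaks were listed in wild type at day 0 and 4 at day 5, against 0 and 1 in the knockout. Covered bases at Eif2s3y, Uty and Ddx3y, genes expressed widely in male cells, numbered 915, 888 and 792 in the wild-type library of day 5, while the other 3 libraries had 0 at these genes. Chromosome X held 2.15% of the peaks at day 0 and 2.17% at day 5. The Y difference lies between libraries with the same clone label, and its part in the results below was not tested. All values below are from autosomes. A pool of nuclei also cannot show whether a region opened in every cell or in more of the cells.

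About 2 peaks in 3 were shared between the days. Of the day 0 peaks, 36.1% had no overlap of 1 bp or more at day 5 (95% exact interval 35.9 to 36.3, which covers counting error only), which is 70205 peaks. Of the day 5 peaks, 33.1% had none at day 0 (32.9 to 33.3), or 61321 peaks. The 98.3 Mb covered on both days made up 59.5% of the day 0 bases and 61.9% of those of day 5. The 2 kinds of unshared peak lay in different places relative to genes. More than 100 kb from any protein-coding gene lay 20.1% of the day 5 only peaks (19.8 to 20.4), 10.7% of the day 0 only peaks (10.5 to 10.9) and 8.48% of the shared peaks (8.32 to 8.63). Within 1 kb of a promoter lay 14.3% of the shared peaks (14.1 to 14.5), 4.68% of the day 0 only peaks (4.52 to 4.84) and 3.70% of the day 5 only peaks (3.55 to 3.86). The unshared peaks can be set beside the other genotype. Of the day 5 only peaks, 43.5% overlapped a knockout peak at day 5, and 15335 of the 61321 overlapped one at day 0. Of the day 0 only peaks, 68.6% overlapped a knockout peak at day 0 and 50.5% at day 5. Of the shared peaks, 92.7 and 92.9% overlapped one.

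Promoters are described first by their sequence. For 16457 of 20665 autosomal protein-coding genes, RefSeq gave at least 1 promoter window on GRCm38.p6 (the mm10 assembly), from 250 bases before the gene start to 50 after it. A peak overlapped a window on both days in 11108 genes and on neither in 4493. In 406 genes (2.47%) there was a peak at day 0 only, and in 450 (2.73%) at day 5 only. Of the 242 genes with a window among 23 lists of pathway and cell type genes, 12 (4.96%) were of the day 0 only kind and 12 (4.96%) of the day 5 only kind. The core pluripotency list held 3 of the first kind among its 7 genes, namely Pou5f1, Lin28a and Tdgf1. The naive list held 2 of 11 (Tcl1 and Spp1) and the formative list 1 of 7 (Foxd3), and these 3 lists held none of the second kind. Of the 19 neural progenitor genes, Six3 and Nr2f1 had a day 5 only promoter peak, as had Neurog2 and Nhlh1 of the 13 neuron genes, and neither list had a day 0 only gene. Of the 10 glia genes, Gfap and Nfix were of the day 0 only kind and S100b of the day 5 only kind.

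Below are 8 of these promoters, chosen after their values were seen to stand for the pluripotency, neural and fibroblast lists, with the nearest peak of the other day at least 696 bp away. Each is read in the direction of transcription with every CpG in capitals, since methylation of these sites is a known feature of silent promoters and methylation itself was not measured here.

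The first 4 had a wild-type peak over all 300 bases at day 0 and none at day 5. They belong to Pou5f1 (the factor Oct4 that is required for pluripotency; chr17:35505782-35506081, plus strand, 11 CpG), Lin28a (an RNA-binding protein that blocks let-7 maturation; chr4:134018767-134019066, minus strand, 10 CpG), Tcl1 (a coactivator of the kinase Akt, expressed in naive cells; chr12:105222688-105222987, minus strand, 11 CpG) and Foxd3 (a forkhead factor of epiblast and neural crest; chr4:99656049-99656348, plus strand, 25 CpG).
Pou5f1: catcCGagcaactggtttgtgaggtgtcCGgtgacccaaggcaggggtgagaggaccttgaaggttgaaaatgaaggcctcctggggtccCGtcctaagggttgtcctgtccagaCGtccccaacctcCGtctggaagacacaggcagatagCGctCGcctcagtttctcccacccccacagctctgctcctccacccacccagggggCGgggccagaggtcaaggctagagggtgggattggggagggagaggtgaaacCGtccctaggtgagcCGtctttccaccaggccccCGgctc
Lin28a: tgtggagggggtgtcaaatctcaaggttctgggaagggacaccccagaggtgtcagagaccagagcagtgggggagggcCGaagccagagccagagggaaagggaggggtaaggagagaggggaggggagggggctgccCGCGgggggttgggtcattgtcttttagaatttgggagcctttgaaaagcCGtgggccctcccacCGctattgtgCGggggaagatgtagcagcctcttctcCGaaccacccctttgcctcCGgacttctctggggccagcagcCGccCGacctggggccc
Tcl1: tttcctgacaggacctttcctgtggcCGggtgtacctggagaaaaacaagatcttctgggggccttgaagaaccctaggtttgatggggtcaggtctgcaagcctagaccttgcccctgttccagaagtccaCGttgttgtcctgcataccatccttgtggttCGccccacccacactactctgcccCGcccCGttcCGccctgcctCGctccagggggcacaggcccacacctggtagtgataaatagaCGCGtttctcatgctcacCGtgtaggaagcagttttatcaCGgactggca
Foxd3: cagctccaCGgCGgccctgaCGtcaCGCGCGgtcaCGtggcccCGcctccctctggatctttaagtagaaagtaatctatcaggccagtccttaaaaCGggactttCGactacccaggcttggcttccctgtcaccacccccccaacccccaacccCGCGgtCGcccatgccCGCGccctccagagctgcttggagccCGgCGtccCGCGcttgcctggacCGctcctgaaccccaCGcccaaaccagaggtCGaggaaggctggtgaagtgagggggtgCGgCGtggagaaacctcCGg

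The nearest day 5 peak lay 1281 bp from the Pou5f1 window, 1457 bp from that of Lin28a, 1482 bp from that of Tcl1 and 938 bp from that of Foxd3. The Pou5f1 peak of day 0 ran from 35505728 to 35506481. At 1 other listed start of this gene a day 0 peak covered only 4 bases of the window, with the nearest day 5 peak 245 bp away. In the knockout, Pou5f1 and Foxd3 likewise had a promoter peak at day 0 and none at day 5, while Lin28a and Tcl1 had one on both days.

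The next 4 had a wild-type peak at day 5 and none at day 0. They belong to Six3 (a homeobox factor of the anterior forebrain and eye; chr17:85620584-85620883, plus strand, 14 CpG), Neurog2 (a proneural bHLH factor; chr3:127632886-127633185, plus strand, 10 CpG), Nhlh1 (a bHLH factor of young neurons; chr1:172057547-172057846, minus strand, 2 CpG) and Col3a1 (a fibrillar collagen of fibroblasts; chr1:45311288-45311587, plus strand, 0 CpG).
Six3: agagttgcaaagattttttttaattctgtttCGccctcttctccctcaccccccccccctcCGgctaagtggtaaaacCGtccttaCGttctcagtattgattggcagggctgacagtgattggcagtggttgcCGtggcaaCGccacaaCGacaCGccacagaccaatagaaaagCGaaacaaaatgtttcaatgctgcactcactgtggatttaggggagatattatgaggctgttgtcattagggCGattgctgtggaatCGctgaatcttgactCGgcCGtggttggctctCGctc
Neurog2: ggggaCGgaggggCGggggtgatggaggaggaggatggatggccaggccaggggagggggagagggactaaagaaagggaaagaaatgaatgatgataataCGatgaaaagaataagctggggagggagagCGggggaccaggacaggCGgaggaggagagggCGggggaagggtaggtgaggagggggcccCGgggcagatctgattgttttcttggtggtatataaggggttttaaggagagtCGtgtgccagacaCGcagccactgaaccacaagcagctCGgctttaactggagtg
Nhlh1: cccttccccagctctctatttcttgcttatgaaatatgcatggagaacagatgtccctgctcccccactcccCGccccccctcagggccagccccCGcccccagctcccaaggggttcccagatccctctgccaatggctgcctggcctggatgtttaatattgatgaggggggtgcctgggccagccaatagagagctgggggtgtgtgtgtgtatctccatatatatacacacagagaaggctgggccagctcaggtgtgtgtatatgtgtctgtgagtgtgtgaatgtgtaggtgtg
Col3a1: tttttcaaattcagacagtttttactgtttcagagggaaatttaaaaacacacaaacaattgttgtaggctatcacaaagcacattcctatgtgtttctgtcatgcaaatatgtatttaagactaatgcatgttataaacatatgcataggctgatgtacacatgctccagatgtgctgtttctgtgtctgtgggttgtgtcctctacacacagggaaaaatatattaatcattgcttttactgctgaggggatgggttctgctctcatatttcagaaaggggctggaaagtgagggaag

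The day 5 peak covered all 300 bases of the Six3, Nhlh1 and Col3a1 windows and 263 of the Neurog2 window. The nearest day 0 peak lay 2012 bp from Six3, 696 bp from Neurog2, 3116 bp from Nhlh1 and 998 bp from Col3a1. Neurog2 had the same pattern in the knockout, with 0 and then 279 bases covered. Six3 and Col3a1 had a knockout peak on both days, and Nhlh1 on neither. Other list genes of the day 5 only kind were Bcl3, T, Mesp2, Postn, Stra8 and Hoxa2, and of the day 0 only kind Cer1, Krt14, Hoxa11 and Hoxd12. Some single-day promoters turned on the edge of a peak, since the nearest peak of the other day lay only 2 bp from the Mesp2 window, 25 bp from Hoxa11, 61 bp from Spp1 and 74 bp from Tdgf1. Promoters of the remaining core factors with a window, among them Sox2, Nanog and Utf1, had a peak on both days.

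Promoters open on a single day were poor in CpG. The observed over expected CpG ratio, which is near 1 where CpG sites are as frequent as the C and G content predicts, had a median of 0.76 over the 13042 windows open on both days. It was 0.29 over the 583 day 0 only windows, 0.31 over the 683 day 5 only windows and 0.17 over the 5777 windows with no peak. A ratio above 0.6 was found in 71.2% of the windows open on both days, in 14.1% of the day 0 only windows and in 29.0% of the day 5 only windows. The day 5 only class thus held more windows in the upper range than the day 0 only class. Of the printed day 5 only promoters, Six3 had a ratio of 0.75, Neurog2 0.57, Nhlh1 0.08 and Col3a1 0.

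**Figure D1:**
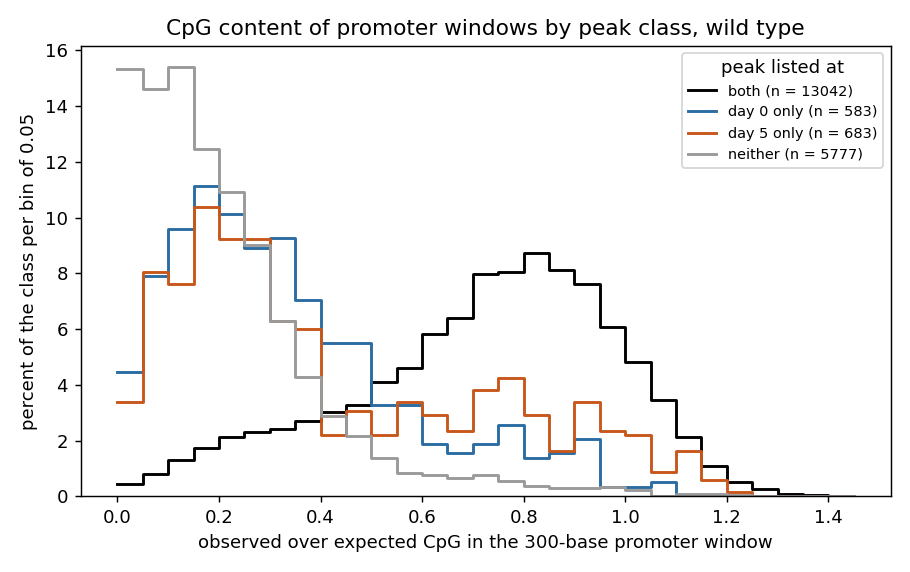
Distribution of the observed over expected CpG ratio (x axis) as percent of windows per bin (y axis) for 300-base RefSeq promoter windows with a wild-type peak on both days, at day 0 only, at day 5 only or on neither. Windows open on both days peak near a ratio of 0.8, while both single-day classes peak near 0.2, and the day 5 only class has a second, lower rise above 0.6.

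Short motifs were counted on both strands of the same windows. The AP-1 motif TGACTCA was found in 9.81% of the day 5 only windows (67 of 683), in 35 of the 583 day 0 only windows, in 3.47% of those open on both days and 4.70% of all 20085. The KLF motif GGGTGTG was found in 12.5% of the day 0 only windows (73 of 583), 7.61% of the day 5 only windows and 8.09% of all. AP-1 is the factor family of Fos and Jun, which act downstream of growth factors, and KLF factors such as Klf2, Klf4 and Klf5 belong to the naive network. The E-box CAGCTG, bound by many bHLH factors, was found in 22.5% of the day 5 only and 20.6% of the day 0 only windows against 15.6% of all. The shares for the SOX motif ACAAAG were 20.6 and 17.7% against 16.6%, and those for the ESRRB motif AAGGTCA 5.42 and 5.15% against 4.03%. The octamer ATGCAAAT, bound by Oct4, was found in 12 day 5 only and 7 day 0 only windows, and in 336 of all. No window of the 4 day 0 only promoters printed above held any of the 6 motifs. Of the day 5 only promoters printed, Nhlh1 held the KLF motif, and Col3a1 held the octamer and the SOX motif. In the 5777 windows with no peak the shares were 23.8% for SOX, 6.47% for ESRRB and 6.73% for AP-1, and 123 held the octamer, so the SOX, ESRRB and octamer shares of both single-day classes lay below those of windows without a peak. Matches are letters in a window and were not tested as binding sites, and the classes differ in CpG content.

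Gene loci were then compared by covered bases, which takes in distal elements. A locus is the gene body with 50 kb on each side, and its value is the log2 ratio of covered bp at day 5 over day 0, after adding 500 bp to each and subtracting the median locus, so that 1 is 2-fold above and −1 2-fold below the median locus. Neighbouring genes share flanks, so their values are not independent. Loci with a mean of at least 5000 covered bp numbered 17306, of which 377 (2.18%) were 2-fold or more higher at day 5 and 66 (0.381%) 2-fold or more lower. The median locus had itself lost bases (−0.23 before centring). Scaled to the total of covered autosomal bases instead, it stood at −0.17, and the split became 216 higher against 141 lower loci. Of all loci at the minimum, 49.2% lay above the median locus, whose value over these loci was −0.01.

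**Figure D2:**
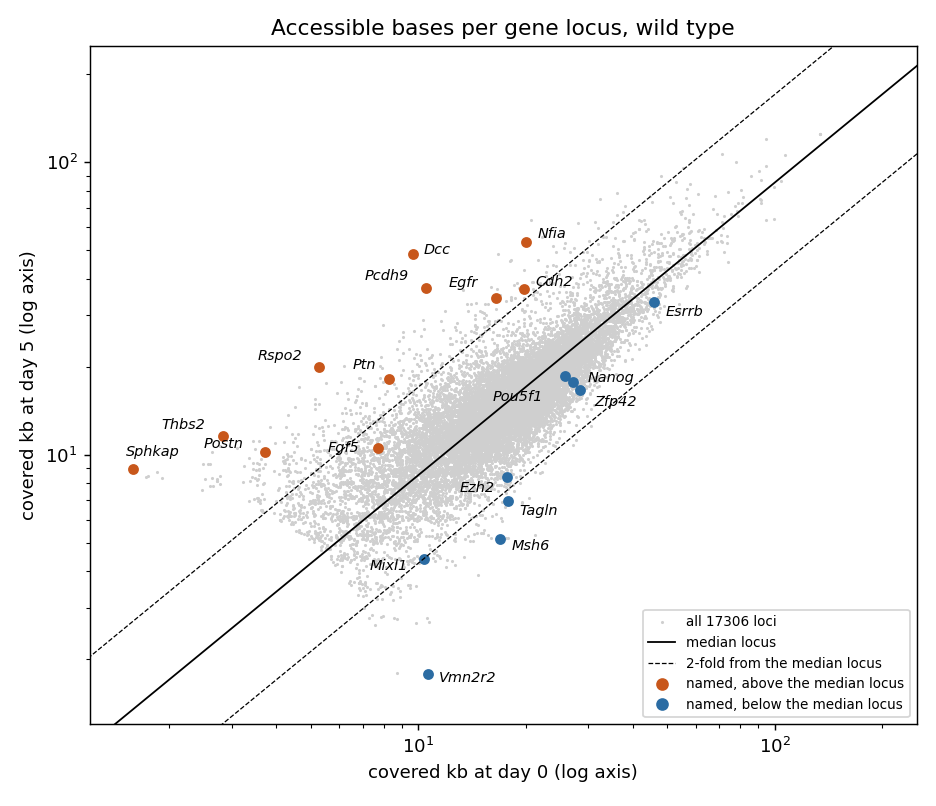
Covered kb per gene locus at day 0 (x axis, log scale) and day 5 (y axis, log scale) in wild type, 1 grey point per locus for 17306 loci, with the median locus (solid line) and 2-fold lines (dashed). Dcc, Pcdh9, Nfia and Egfr lie above the upper dashed line, Vmn2r2, Msh6 and Tagln lie below the lower one, and Pou5f1, Nanog, Zfp42 and Esrrb lie between the median and the lower dashed line.

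Loci of the core pluripotency factors lay moderately below the median locus. Of the 10 core loci, 8 were below it, with a median of −0.28, and none passed 2-fold. The Pou5f1 locus (chromosome 17, 35506032 to 35510777) had 25852 covered bp at day 0 and 18630 at day 5, a value of −0.23. In peaks this was 30 at day 0 and 22 at day 5, of which 11 were day 0 only and 2 day 5 only. Nanog (chromosome 6, 122707489 to 122714633), a homeobox factor that stabilises the naive state, had 27180 and 17773 bp, a value of −0.37, with 12 day 0 only and 2 day 5 only peaks. Both values were near 0 in the knockout, −0.02 for each of these genes. Dppa4, a chromatin protein of pluripotent cells, had 15533 and 10188 bp (−0.35), with 10 of its 18 day 0 peaks absent at day 5, and Zfp281, a zinc finger factor that partners the network, 26039 and 16440 bp (−0.42). Sox2, which both stem cells and neural precursors use, went the other way with 19494 and 18257 bp (0.14), and Utf1, a chromatin factor of stem cells, had 16472 and 16312 bp (0.22). With 10 kb on each side the median was −0.08 over the 8 core loci that could be used, which had −0.28 with 50 kb. In the 100 kb around the gene starts it was −0.04 over 7 core loci, which had −0.17 as whole loci with 50 kb.

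**Figure D3:**
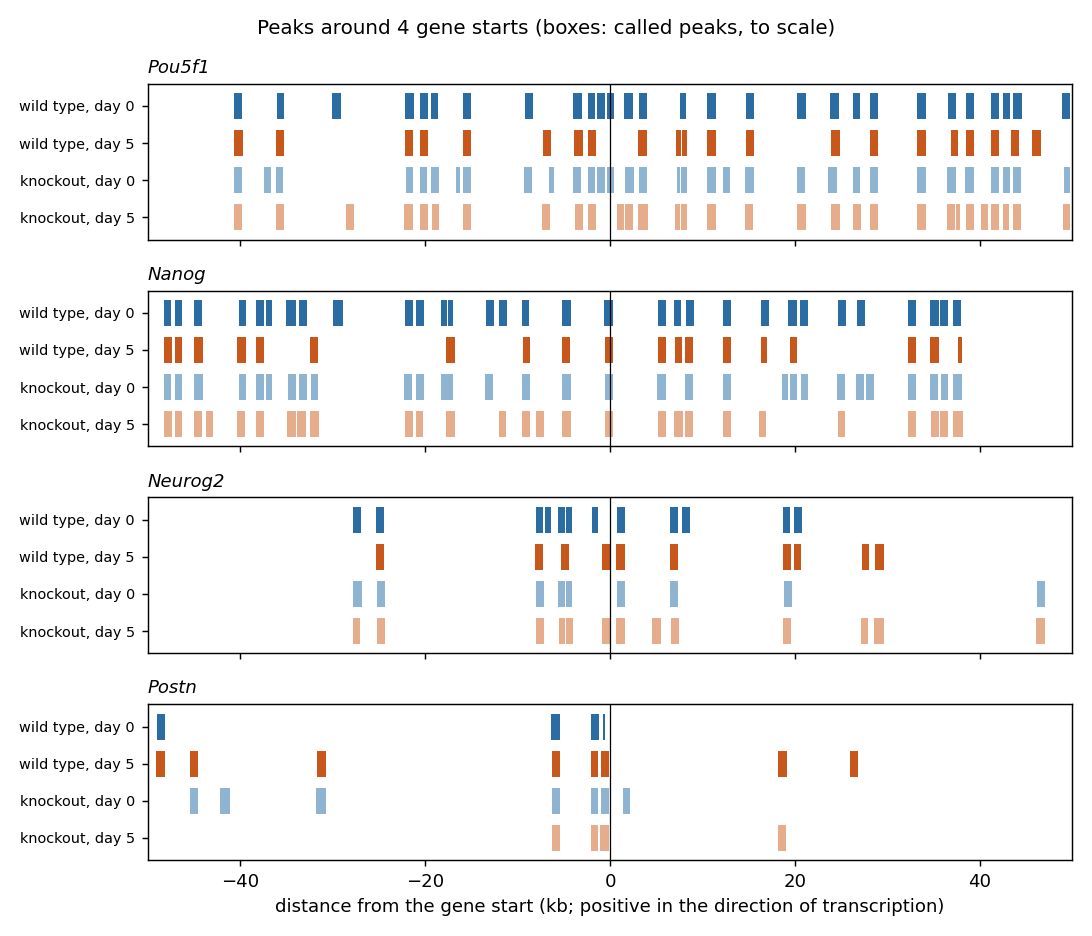
Peaks within 50 kb of the starts of Pou5f1, Nanog, Neurog2 and Postn (x axis, kb from the gene start in the direction of transcription), 1 row per library and 1 box per peak, to scale. In wild type the number of peaks goes from 28 to 21 around Pou5f1 and from 31 to 19 around Nanog, with the Pou5f1 start covered at day 0 only, and in the knockout from 32 to 30 and from 30 to 27. Around Neurog2 it goes from 12 to 10 in wild type and from 9 to 13 in the knockout, and around Postn from 4 to 8 and from 7 to 4.

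Naive and formative loci were mixed. Of 18 naive loci 7 lay above the median locus (list median −0.07), and of 12 formative loci 4 did (−0.12), with none past 2-fold. Zfp42 (Rex1, a marker of naive cells) had 28447 bp at day 0 and 16654 at day 5, a value of −0.52, and 16 of its 33 day 0 peaks were absent at day 5. Klf2, a target of naive signalling, had 20691 and 12016 bp (−0.53). Esrrb, an orphan nuclear receptor of the naive network, had 45979 and 33368 bp (−0.23). Klf4, which is activated by STAT3, was the highest naive locus, with 9443 and 11175 bp (0.46). Among formative genes Fgf5, a secreted factor of the post-implantation epiblast, had 7699 and 10548 bp (0.66). Otx2, a factor of the formative epiblast and later of the forebrain, had 19793 and 14925 bp (−0.17), and Foxd3 had 13953 and 8098 bp (−0.52) with 8 day 0 only peaks and 0 day 5 only peaks. In the knockout Zfp42 was at −0.08, Klf2 at 0.01 and Fgf5 at 0.20.

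Most neural loci lay above the median locus, with few past 2-fold. Of 25 neural progenitor loci 21 were above it (median 0.28), as were 15 of 18 neuron loci (0.23) and 12 of 15 glia loci (0.20). Scaled to total bases, the medians were still above 0 but small, at 0.10, 0.05 and 0.02. Compared only with loci of similar gene density, 21 of 25 neural progenitor, 14 of 18 neuron and 9 of 15 glia loci were above the median. The progenitor list had 2 loci past 2-fold and the glia list 2, while the neuron list had none. Ptn (chromosome 6, 36714924 to 36810179), a heparin-binding growth factor of radial glia, rose from 8267 to 18118 bp (1.32), with 13 day 5 only peaks and 1 day 0 only peak. Cdh2, the N-cadherin gene of the neural epithelium, rose from 19836 to 36818 bp (1.11), though its value was 0.81 among loci of similar gene density and 0.93 scaled to total bases, under 2-fold. Nfia (chromosome 4, 97578066 to 98118876), a nuclear factor of the switch to glia, rose from 20098 to 53570 bp (1.62), with 46 of its 63 day 5 peaks absent at day 0. Slc1a2, a glutamate transporter of astrocytes, rose from 7986 to 17680 bp (1.33). Nfia and Slc1a2 had no promoter peak on either day. In the 100 kb around the gene start alone, 0 of 10 glia loci, these genes included, were 2-fold higher.

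The classical markers of early neural cells lay a little above the median locus. Sox1, the earliest neural Sox factor, had 12163 and 12799 bp (0.30). Pax6, a paired-box factor of radial glia, had 16604 and 16472 bp (0.22), and Nes, the intermediate filament nestin, had 20872 and 21577 bp (0.28). Hes5, a Notch target that holds cells in the precursor state, had 15289 and 16418 bp (0.33). The highest neuron locus was Map2, a microtubule protein of dendrites, with 18844 and 26568 bp (0.71), and its 100 kb around the start alone gave −0.09. The lowest were Stmn2 in the neuron list (−0.27), Rax in the progenitor list (−0.25) and Gfap in the glia list (−0.46). In the adhesion switch list, which tracks the exchange of epithelial for neural and mesenchymal cadherins, 8 of 12 loci lay above the median locus (0.19, or 0.02 scaled to total bases). Cdh1, the E-cadherin gene of stem cells, had 40313 and 30979 bp (−0.14), with 18 day 0 only and 4 day 5 only peaks, and the zinc finger repressor gene Zeb1 rose from 9845 to 18746 bp (1.13), or 0.95 scaled to total bases and 0.83 among loci of similar gene density. In the knockout the neural progenitor, neuron and glia lists had medians of 0.08, 0.07 and 0.01, Ptn was at 0.07, Cdh2 at 0.08, Nfia at 0.62 and Zeb1 at 0.54.

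**Figure D4:**
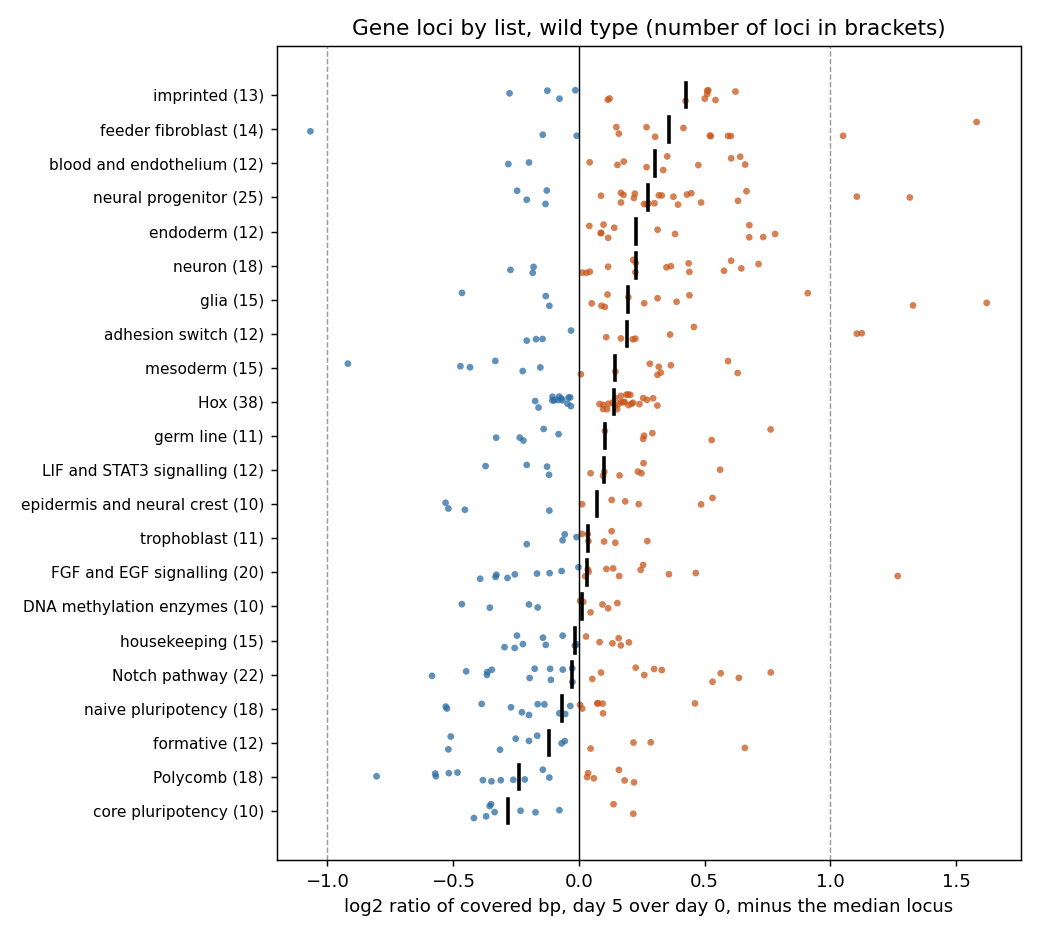
Log2 ratio of covered bp, day 5 over day 0, minus the median locus (x axis) for each member of 22 gene lists (rows, number of loci in brackets) in wild type, with list medians as black bars and 2-fold as dashed lines. Core pluripotency and Polycomb genes have the lowest medians, and imprinted, feeder fibroblast, blood and neural progenitor genes the highest, with single loci past 2-fold in 5 lists.

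Signalling genes matching the change of medium were spread around the median locus. Of 20 FGF and EGF signalling loci 11 lay above it (median 0.03, which becomes −0.14 scaled to total bases). The receptor gene Egfr (chromosome 11, 16752203 to 16913907), whose ligand EGF is in the day 5 medium, rose from 16504 to 34423 bp (1.27), with 27 day 5 only and 6 day 0 only peaks and 0.53 in the knockout. The other receptor genes of both families ranged from −0.39 (Erbb2) to 0.26 (Fgfr4). The feedback genes of the pathway ranged from −0.28 (Spry4) to 0.47 (Dusp6). Of 12 LIF and STAT3 loci 8 lay above the median locus (0.10, or −0.08 scaled to total bases). Il6st, the gp130 receptor chain through which LIF signals, was the lowest with 17309 and 11240 bp (−0.37), and the kinase gene Jak1 was the highest with 12209 and 15496 bp (0.56). Of 22 Notch loci 10 lay above (−0.03). The ligand gene Dll1 was the highest with 7934 and 11706 bp (0.76) and was higher in the knockout too (0.99 there). The ligand gene Jag1 was at 0.64, and Maml1, a coactivator of Notch targets, was the lowest with 24974 and 13987 bp (−0.58).

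Marker loci of other embryonic lineages also lay mostly above the median locus, although several of their list medians change sign with the scaling. All 12 endoderm loci at the minimum lay above the median locus (median 0.23, or 0.05 scaled to total bases), and so did 10 of 12 blood and endothelium loci (0.30, or 0.13). In the knockout the endoderm median was 0.18 and the blood and endothelium median −0.04. Foxa2, a forkhead factor of endoderm and floor plate, had 8494 and 12674 bp (0.78, and 0.68 in the knockout). The blood factor gene Runx1 had 20621 and 27986 bp (0.66, and −0.03 in the knockout). Of 15 mesoderm loci 9 lay above (0.15, or −0.03 scaled to total bases), and Mixl1, a homeobox gene of the primitive streak, was the lowest with 10366 and 4400 bp (−0.92), or 0.20 with 10 kb on each side. Mixl1 passed the minimum of 5000 bp only through day 0. Trophoblast (7 of 11, 0.04) and epidermis and neural crest loci (6 of 10, 0.07) had medians of −0.14 and −0.10 scaled to total bases.

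Fibroblast markers, included because the cells were grown on feeders, lay high at day 5. Of 14 loci at the minimum 11 lay above the median locus (median 0.36, or 0.18 scaled to total bases), and the list summed to 198.6 kb at day 0 and 203.9 kb at day 5. Postn (chromosome 3, 54359267 to 54391041), the matrix protein periostin, rose from 3716 to 10264 bp (1.58) and Col3a1 from 7013 to 12774 bp (1.05), while both were below the median locus in the knockout (−0.17 and −0.15). Only 1 locus of the list, Postn, stayed past 2-fold upwards scaled to total bases, and Postn passed the minimum of 5000 bp only through day 5. Tagln, a smooth muscle actin-binding protein, fell from 17894 to 6979 bp (−1.07), but only at −0.12 with 10 kb on each side. Dcn and Lum, proteoglycans of fibroblasts, were under the minimum with 2218 and 6302 bp, and 1302 and 4491 bp. The list median lay between those of the imprinted list (0.42) and the blood and endothelium list (0.30). The 2 libraries differed in this list and in the Y peaks above, but 1 library per day cannot show whether these go together. The part of either in the other results was not tested.

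Genes of Polycomb repressors lay low, while those of DNA methylation enzymes did not as a group. Of 18 Polycomb loci 12 were below the median locus (median −0.24, with −0.41 scaled to total bases and −0.23 among loci of similar gene density), and the knockout median was −0.15. Ezh2, the methyltransferase of histone H3 lysine 27, had 17710 and 8387 bp (−0.80, and −0.37 in the knockout), with 12 day 0 only peaks and 1 day 5 only peak. Phc1 and Mtf2, subunits of Polycomb complexes that stem cells express at high level, were both at −0.57, and Suz12, the scaffold partner of Ezh2, was at −0.48. The Cbx2 (0.22) and Cbx8 (0.18) loci, which encode chromodomain subunits, were the highest. Of 10 DNA methylation loci 6 lay above the median locus (0.01, or −0.16 scaled to total bases), with Tet1, a methylcytosine oxidase of stem cells, lowest at 29803 and 18211 bp (−0.47). Housekeeping genes, taken for reference, had a median of −0.02 over 15 loci, with 6 above.

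Across the genome, the 10 highest loci had roles of several kinds, among them an axon guidance receptor, a protocadherin and a secreted Wnt enhancer. Dcc, the netrin receptor of growing axons and the highest locus, rose from 9663 bp in 11 peaks to 48629 bp in 55 peaks (2.50), of which 47 were day 5 only. Sphkap, a kinase anchoring protein, rose from 1580 to 8962 bp (2.42), and Ppp1r17, an inhibitor of protein phosphatase 1, from 1740 to 8495 bp (2.24). Cldn1, a tight junction protein, rose from 1721 to 8394 bp (2.23), and 4930583I09Rik and Gm765, whose roles are not given here, stood at 2.21 and 2.11. These 5 loci each started from 2 peaks, passed the minimum of 5000 bp only through day 5 and so depend on few regions. Thbs2, a matrix thrombospondin, rose from 2829 to 11587 bp (2.09) and also passed the minimum of 5000 bp only through day 5. Rspo2 (chromosome 15, 43020788 to 43171594), a secreted enhancer of Wnt signalling, rose from 5265 to 20008 bp (2.06), with 17 day 5 only peaks and no day 0 only peak. Pcdh9, a protocadherin of neurons, rose from 10486 to 37303 bp (2.01), though in the 100 kb around its start alone the value was 0.25. Ppp1r1c, another phosphatase inhibitor, rose from 4612 to 17027 bp (2.01) and, like Thbs2, passed the minimum only through day 5. In the knockout these 10 loci ranged from −0.01 (Ppp1r17) to 1.45 (4930583I09Rik), with Dcc at 0.79 and Pcdh9 at 0.57. Over all loci the knockout had 80 higher and 8 lower of 17659.

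The lowest loci were members of multi-copy families, predicted genes and a few single-copy genes. Vmn2r2, a vomeronasal receptor gene, fell from 10676 to 1776 bp (−2.07), and Nlrp9b, of a family expressed in oocytes, from 14663 to 3882 bp (−1.56). Reads from such families can be shared between copies, so these values are uncertain. Gm17768 (−1.78), Gm3325 (−1.58) and Gm10033 (−1.53) are predicted genes whose roles are not given here, and with 10 kb on each side Gm3325 stood at 0.20. The other low loci included Samd9l, an interferon-responsive gene, at −1.49 (9884 and 2659 bp) and Pdap1, a phosphoprotein gene, at −1.45 (17828 and 5209 bp). Ube2v2, a ubiquitin-conjugating enzyme variant, fell from 17575 to 5186 bp (−1.44). Msh6 (chromosome 17, 87975050 to 87990892), a DNA mismatch repair gene, fell from 17003 bp in 21 peaks to 5171 bp in 6 peaks (−1.40). All 6 day 5 peaks at Msh6 were shared with day 0, and in the knockout Pdap1, Ube2v2 and Msh6 were at −0.02, 0.04 and 0.04. Of the low loci named here, all but Pdap1, Ube2v2 and Msh6 passed the minimum of 5000 bp only through day 0.

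The change at a locus went with how crowded its surroundings were. Loci with at most 5 protein-coding genes per Mb had a median of 0.38, and 16.3% of them (180 of 1107) were 2-fold higher. The median was 0.11 from 5 to 10 genes per Mb, 0.01 from 10 to 20, −0.05 from 20 to 40 and −0.07 above 40, where 0.463% were 2-fold higher. Gene length gave the same order in the longer classes, with medians of −0.03 up to 10 kb, −0.04 to 50 kb, 0.04 to 200 kb, 0.32 to 500 kb and 0.70 beyond 500 kb. Of the 214 loci beyond 500 kb, 57 (26.6%) were 2-fold higher and 0 lower. The knockout medians were in the same order of density, from 0.17 in the sparsest to −0.08 in the densest class. When each locus was centred on loci of similar gene density, an alternative chosen after seeing the data, 258 loci were 2-fold higher and 67 lower.

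Windows of 1 Mb gave the same picture without using gene bodies. Of 2303 autosomal windows with a mean of at least 10000 covered bp, 314 (13.6%) were 1.5-fold or more higher at day 5 than the median window and 63 (2.74%) 1.5-fold or more lower. The median over windows without a protein-coding gene was 0.45, with 0.40 for 1 to 2 genes, 0.11 for 3 to 5, −0.06 for 6 to 10, −0.21 for 11 to 20 and −0.28 for more than 20. Gene-free windows held a median of 14.3 kb of peaks at day 0 and 21.4 kb at day 5, while windows of more than 20 genes held 135.8 and 111.1 kb. Of the 314 higher windows 253 held at most 2 genes and 3 held more than 10, and of the 63 lower windows 18 and 28 did. In the knockout the medians ran from 0.25 in gene-free windows to −0.15 in the densest. Across the 2303 windows Pearson's r between the 2 genotypes was 0.45, as a description only, since the windows share libraries and gene content.

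**Figure D5:**
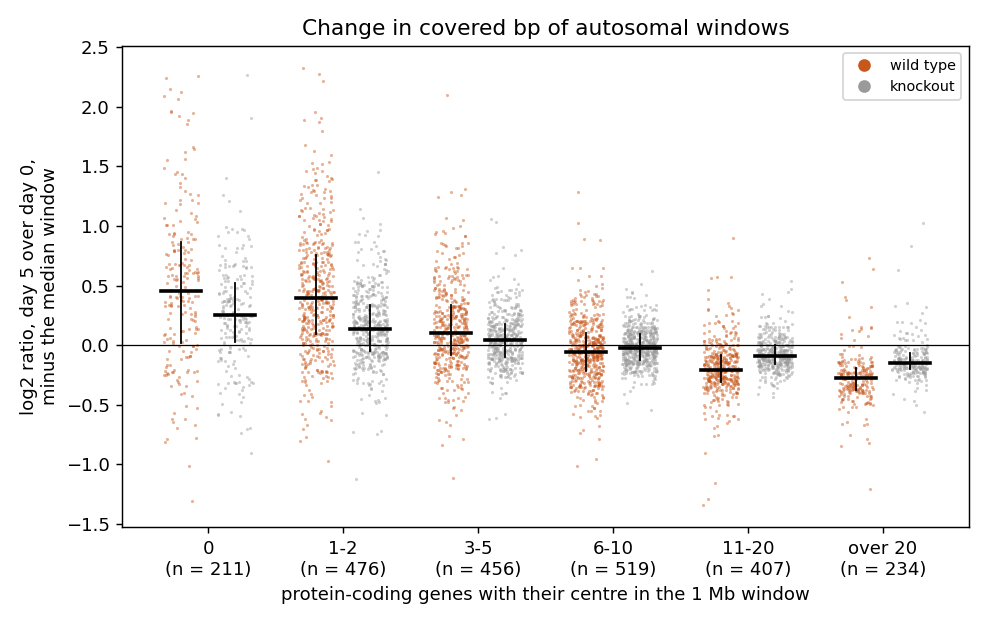
Log2 ratio of covered bp, day 5 over day 0, minus the median window (y axis) for 1 Mb windows grouped by the number of protein-coding genes in them (x axis), 1 point per window, with medians (thick bars) and quartiles (thin lines) for wild type and knockout. The wild-type medians go from 0.45 without genes to −0.28 above 20 genes and the knockout medians from 0.25 to −0.15.

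The highest windows were nearly empty at day 0. On chromosome 18 the window from 71 Mb, which overlaps part of Dcc, had 7 peaks at day 0 and 37 at day 5 (2.33). On chromosome 4 the window from 71 Mb, with only Gm11232, had 4 and 23 peaks (2.28). On chromosome 11 the gene-free window from 38 Mb had 7 and 36 peaks (2.26), and on chromosome 16 the gene-free window from 80 Mb had 5 and 26 (2.24). On chromosome 14 the window from 108 Mb, with Slitrk1, a transmembrane protein of neurites, had 4 and 21 (2.22). In the knockout these 5 windows had values between 0.33 and 0.98. In wild type all 5 passed the minimum only through day 5, with 3599 to 6183 covered bp at day 0. Of the 5 lowest windows, 4 held families of protein-coding genes. On chromosome 13 the window from 61 Mb, in a cathepsin cluster, had 41 and 15 peaks (−1.35), on chromosome 12 the window from 114 Mb, with no protein-coding gene, 24 and 9 (−1.31), and on chromosome 7 the window from 26 Mb, with Cyp2b and Nlrp genes, 44 and 16 (−1.29). The windows from 20 Mb of chromosome 17 (−1.21) and 42 Mb of chromosome 7 (−1.16) hold vomeronasal receptor genes. In the knockout these 5 windows lay between −0.18 and 0.16, and repeated sequence makes their peaks uncertain. Those of chromosomes 12 and 17 passed the minimum only through day 0.

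Day 5 only peaks also came in longer unbroken series. Peaks of both days were merged into 254473 regions, and a run is a series of neighbouring regions listed on the same single day. Runs of 10 or more regions numbered 148 for day 5 and 10 for day 0, and runs of 5 or more 1588 and 663, although day 0 had more unshared regions in all. The longest held 28 day 5 only regions on chromosome 11 between 37460422 and 37956490, with no protein-coding gene in it and Tenm2, a teneurin of synaptic adhesion, 223.4 kb away. The knockout listed 3 peaks in this run at day 0 and 4 at day 5. The second held 21 regions on chromosome 2 between 137153019 and 137495683, again without a gene, 36.5 kb from the Notch ligand gene Jag1. Here the knockout listed 8 peaks at day 0 and 10 at day 5. The third held 19 regions in Sox5 (chromosome 6, 143994822 to 144170376), a SoxD factor of neural and cartilage precursors, where the knockout listed 3 peaks at day 0 and 12 at day 5. A run of 18 regions on chromosome 1 between 76090814 and 76718472 lay between Slc4a3, an anion exchanger gene at 531.4 kb, and Epha4, an ephrin receptor gene at 648.7 kb, with 0 knockout peaks at day 0 and 11 at day 5. A further run of 18 lay in the urea transporter gene Slc14a2, with 4 knockout peaks at day 0 and 6 at day 5. The longest day 0 only run held 15 regions over Nlrp9c, Nlrp4a, Nlrp9a, Vmn1r185 and Cyp2b23 (chromosome 7, 26373045 to 26695251), and the next 4, of 14, 14, 12 and 11 regions, lay in Vmn1r, Nlrp, Olfr and Zfp clusters of chromosomes 7 and 11, multi-copy families whose reads are uncertain.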

How the data were processed

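Single-nucleus ATAC-seq peaks of wild-type cells at day 0 and day 5 were compared, with knockout values beside them. The values used are positions: for each library the authors deposited the chromosome, start and end of its peaks, with no score or read count. Peak calling ran separately in each library with cellranger-arc against mm10, per the file headers. Versions named in the submitters' processing notes are 2.0.0 for Cell Ranger ARC and 1.7.2 for Scanpy. Treatment of doublets is not given in the sources used here. The RNA data were not analysed here. Peaks were called per library, so the number of nuclei and the depth of each can move what was listed.

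Overlaps, covered bp and ratios were computed with python 3.11.15, numpy 2.4.6, pandas 2.3.3 and scipy 1.17.1, drawn with matplotlib 3.10.9 and tested on simulated data. Peaks of both days counted as shared at 1 bp. Locus ratios used a pseudocount of 500 bp, 50 kb flanks and a minimum mean of 5000 covered bp, and windows a minimum of 10000. Gene positions and promoter windows are from RefSeq (GRCm38.p6), without exons. Promoter windows matched 16457 of 20665 genes and 242 of 339 autosomal list genes, none on chromosome 18.

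The members and lists were chosen with earlier results of these data known. Named genes are 16 stem cell and neural genes, the highest and lowest of each list, the 10 highest and 10 lowest loci (1 per 500 kb), the 5 highest and 5 lowest windows, the 5 longest runs on each day and list genes with a promoter peak on a single day. Other list members, the motifs and the centring by gene density were chosen after seeing the data. Intervals are exact (Clopper-Pearson) at 95%.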

Additional observations from a re-analysis of the deposited data

Results flagged for a closer look

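The Olfr212 locus, an olfactory receptor gene of a multi-copy family, went opposite ways in the genotypes. In wild type it had 8741 covered bp at day 0 and 2755 at day 5 (−1.28 on the log2 scale), and in the knockout 5182 and 10746 (1.02). In wild type the locus passed the minimum of 5000 bp only through day 0. The difference was not tested, as each group has 1 library.

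In the first 10 Mb of the Y chromosome, which the comparisons do not use, 4 peaks were listed in wild type at day 5. Wild type had 0 there at day 0, and the knockout had 0 and 1 at the same 2 time points.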

How the results depend on the processing

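No paired analysis was possible because every group has 1 library and all carry the same clone label. With a reciprocal overlap of 50%, unshared peaks made up 37.7% of day 0 and 34.6% of day 5, and 35.1 and 34.7% when the longer list was reduced to its widest peaks, which puts the days level. Lower loci numbered 21 with a pseudocount of 2000 bp, 188 with a minimum mean of 2000 bp and 141 scaled to total covered bases. Higher loci numbered 209 in the 100 kb around the gene start alone and 216 scaled to total covered bases. Lists with a median above 0 numbered 16 of 23, and 8 scaled to total covered bases. The locus of Gm3325, a predicted gene, stood at 0.20 with 10 kb on each side in place of −1.58. In each of these the cause was not tested. Of 683 comparisons of 78 named loci with the alternatives, 662 stayed within the limits set for an equal value, 20 moved and 1 reversed. A minimum mean of 2000 bp cannot change a locus value, and scaling to total bases shifts each by less than the limit. Both settings therefore counted as equal for every named locus. Reversal was counted only for loci 2-fold or more from the median locus, so smaller changes of sign are not in it. Of 206 comparisons for lists 191 stayed and 15 moved, judged by the share of members above 0 and not by the median. Only 5 lists could count as reversed. Depth per library is unknown and limits every missing peak.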

Other observations

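Imprinted genes, which are expressed from the copy of a single parent, had the highest list median at 0.42 (9 of 13 loci above the median locus), with 0.25 scaled to total covered bases and 0.22 among loci of similar gene density. Kcnq1, a potassium channel gene of an imprinted cluster, had 36499 covered bp at day 0 and 48082 at day 5 (0.62), and in the knockout 38633 and 56225 (0.57). Igf2, a fetal growth factor, was at 0.50, its receptor Igf2r at 0.51 and the maternally expressed inhibitor Cdkn1c at 0.42. Zim1, a zinc finger gene, was the lowest with 10833 and 7481 bp (−0.28). The knockout median of the list was 0.22.

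Hox loci, which order the body axis, stayed within a narrow band, from −0.17 (Hoxd4) to 0.31 (Hoxb9) over 38 loci, with 25 above the median locus (median 0.14, or −0.04 scaled to total covered bases). Neighbouring Hox genes share most of their 50 kb flanks and are not independent. Of 11 germ line loci 6 lay above the median locus (0.10, or −0.07 scaled to total covered bases), and Brdt, a testis bromodomain gene, was the highest with 8869 and 13053 bp (0.76). Among the 2-cell-like genes only Duxf3, itself multi-copy, reached the minimum, with 7770 and 6287 bp (−0.05).

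By chromosome, the median window ranged from −0.18 on chromosome 17 (87 windows) to 0.13 on chromosome 3 (151 windows, of which 36 were 1.5-fold higher). Chromosome 17 windows held a median of 7 protein-coding genes and those of chromosome 3 a median of 4.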
